A study of Mus musculus with 19 samples.

Results

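Receptors for myeloid cytokines were followed in LSK cells and CMPs upon *Spehd* knockdown, through 10 genes chosen by name from 54352 genes counted in 19 RNA-seq libraries. These were *Csf1r*, *Csf2ra*, *Csf2rb*, *Csf2rb2*, *Csf3r*, *Il3ra*, *Il6ra*, *Il6st*, *Ifngr1* and *Il1r1*. All 10 were found in the counts of every library, and all 10 passed the filter on low counts in each comparison. *Spehd* is a long noncoding RNA, and it was depleted with 2 doxycycline-inducible shRNAs, sh10 and sh20. A shRNA against *Renilla* luciferase, which mouse cells do not carry, served as the control. The E-SLAM HSCs that received the vectors came from C57BL6 mice, and were transplanted without competitor cells into sub-lethally irradiated C57BL/6-CD45.1; cKit-w41 recipients of both sexes, aged 9 to 12 weeks. Cells from 1 transduced well went into several animals, and sub-lethal irradiation leaves a host some blood cells of its own, which lack zsGreen. After 10 weeks of reconstitution all animals, controls included, ate doxycycline for 6 days, and zsGreen+ LSK cells (Lin- Sca1+ cKit+, KLS in the labels) or CMPs (out of Lin- Sca1- cKit+) were sorted. There were 3 libraries of CMPs carrying sh10, 2 carrying sh20 and 4 carrying the control, and 3, 3 and 4 of LSK cells. The labels do not say that libraries came from separate animals, so p-values measure the spread between these libraries.

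Cytokine receptors tell blood progenitors to survive, divide and mature. *Csf1r* encodes a receptor tyrosine kinase that binds M-CSF and drives the monocyte and macrophage lineage. The other members have no kinase of their own, and their receptor complexes recruit JAK kinases, which phosphorylate STAT transcription factors, except *Il1r1*, whose product signals through MYD88 to NF-kB. *Csf3r* encodes the G-CSF receptor of neutrophil precursors. The products of *Csf2ra* and *Il3ra* bind GM-CSF and IL-3, and both signal through the common beta chain encoded by *Csf2rb*, whereas mice also carry *Csf2rb2*, a beta chain used with IL-3 alone. The IL-6 receptor pairs the product of *Il6ra* with gp130, encoded by *Il6st*, which IL-11, LIF and other cytokines share. *Ifngr1* encodes the ligand-binding chain for interferon gamma, and needs *Ifngr2* to signal.

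Depth ran from 3647318 to 5965155 gene counts (median 4918631), and 17174 to 20678 genes were detected in a library. Levels are CPM, counts per 1000000 counts of a library after TMM scaling over all 19 libraries. The sorts were checked on their markers. *Ly6a*, which encodes Sca1, had 50.9 ± 8.62 CPM (SD, n = 4) in LSK cells and 5.18 ± 2.03 CPM (SD, n = 4) in CMPs with *Renilla* shRNA. However, 11 of 12 markers of granulocyte-monocyte progenitors were below their LSK level in control CMPs, *Mpo* and *Elane* among them, and 12 of 14 erythroid and megakaryocyte markers were higher. Some libraries stood apart. The pair of CMP libraries with sh20, replicates B and C, differed from each other in several members, and LSK sh10 replicate B differed from replicates A and C. The T cell gene *Cd3e* had 22.8 ± 15.4 CPM (SD, n = 2) in CMPs with sh20 and 12.4 ± 3.43 CPM (SD, n = 4) with *Renilla* shRNA, against 0.559 ± 0.529 CPM (SD, n = 3) with sh10. The lymphoid markers summed to 350 and 421 CPM in CMPs with sh20, within the 337 to 441 CPM of the control. Of 9 tested in edgeR with sh20, 0 were higher and 1 was lower, 3 were positive and the median log2 fold change was -0.40. The level of *Spehd* itself was not analysed here. Several results that rest on these libraries are given with and without them.

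Promoter sequences were at hand for 8 members, as 9 windows of 300 bases from RefSeq on GRCm38.p6, each with 250 bases before a start of the gene in RefSeq and 50 after it. These starts can differ from those of GENCODE, which give the gene positions elsewhere in the text, and *Il1r1* had 2 of them. Those of *Csf3r* and *Ifngr1* are shown because these genes carry the differences described here, and that of *Csf2ra* because its level followed *Spi1* most closely. Searched on both strands were GAGGAA, a core that PU.1 (the product of *Spi1*) binds, TTNNGNAA, a core of C/EBP factors, and AGATAA, a core of GATA factors. Capitals mark each match. The windows are, 5′ to 3′ on the strand of the gene, *Csf3r* at chr4:126024409-126024708 on the plus strand, *Csf2ra* at chr19:61228369-61228668 on the minus strand, and *Ifngr1* at chr10:19591699-19591998 on the plus strand.
Csf3r: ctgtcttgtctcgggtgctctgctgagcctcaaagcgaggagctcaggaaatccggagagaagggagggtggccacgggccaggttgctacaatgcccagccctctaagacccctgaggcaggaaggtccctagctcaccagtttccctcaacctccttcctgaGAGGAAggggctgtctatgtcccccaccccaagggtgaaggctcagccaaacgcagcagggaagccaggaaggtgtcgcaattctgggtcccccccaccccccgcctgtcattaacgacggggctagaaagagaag
Csf2ra: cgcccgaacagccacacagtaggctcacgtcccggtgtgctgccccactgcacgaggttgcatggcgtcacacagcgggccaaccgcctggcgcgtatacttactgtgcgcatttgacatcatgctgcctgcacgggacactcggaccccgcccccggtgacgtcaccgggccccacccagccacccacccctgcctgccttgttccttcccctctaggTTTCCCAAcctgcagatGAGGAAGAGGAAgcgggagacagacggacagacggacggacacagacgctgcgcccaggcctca
Ifngr1: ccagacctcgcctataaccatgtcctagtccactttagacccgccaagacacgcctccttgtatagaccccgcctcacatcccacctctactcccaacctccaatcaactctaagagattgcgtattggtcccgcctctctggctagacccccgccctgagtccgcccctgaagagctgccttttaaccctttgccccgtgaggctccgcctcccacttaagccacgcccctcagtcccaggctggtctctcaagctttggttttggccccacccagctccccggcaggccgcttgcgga
The *Csf3r* window held GAGGAA once, at bases 165 to 170. The *Csf2ra* window held it at bases 237 to 242 and again at bases 243 to 248, beside TTTCCCAA, a match to TTNNGNAA, at bases 220 to 227. The *Ifngr1* window held none of the 3 motifs. Among the 8 members, 4 held GAGGAA (*Csf2ra*, *Csf2rb2*, *Csf3r* and *Il6ra*), 5 held TTNNGNAA (*Csf2ra*, *Csf2rb2*, *Il3ra*, *Il6ra* and *Il1r1*) and 1 held AGATAA (*Il6ra*), and in *Csf2rb2* and *Il6ra* one match to GAGGAA overlapped one to TTNNGNAA. Of all 32851 windows of this length, 28.3% held GAGGAA, 40.7% TTNNGNAA and 11.2% AGATAA. These matches are letters in a window and were not tested as binding sites.

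The guide strands of the shRNAs are the agents compared, and were read from the designs of the study as the 22 bases between the hairpin loop and its 3′ flank. Capitals mark the seed, bases 2 to 8.
sh10: tACAAAGTcagcttttcctctc
sh20: tATGCTATgacaacccagggca
Renilla: tAGATAAGcattataattccta
The complement of the sh20 seed, ATAGCAT, occurred once in the longest protein-coding transcript of *Csf2rb* and once in that of *Csf2rb2*, and in none of the other 8 members. It occurred in 12.1% of the longest transcripts of 21877 protein-coding genes of GENCODE vM21. The complement of the sh10 seed, ACTTTGT, occurred once in *Csf3r* alone among the members, and in 26.5% of the longest transcripts. The complement of the *Renilla* seed, CTTATCT, occurred in 0 members and in 13.8% of the longest transcripts.

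The 10 receptors covered a wide range of levels, and per kilobase of exon *Ifngr1* led in all 6 groups. With *Renilla* shRNA in LSK cells it stood at 76.5 CPM per kilobase, followed by *Csf3r* at 59.6, *Csf2ra* at 35.0, *Il1r1* at 14.6, *Csf2rb* at 13.5, *Csf1r* at 10.7, *Il3ra* at 7.17, *Il6st* at 5.69, *Il6ra* at 2.76 and *Csf2rb2* at 2.67 CPM per kilobase. Neighbours in this order differed by less than the larger of their SDs for *Il1r1* and *Csf2rb*, for *Il3ra* and *Il6st*, and for *Il6ra* and *Csf2rb2*. In CMPs with *Renilla* shRNA *Ifngr1* stood at 119 CPM per kilobase and *Csf2ra* came second at 25.6, ahead of *Csf3r* at 17.3 and *Csf1r* at 10.7. *Il1r1* followed at 6.54, *Csf2rb* at 3.12, *Il3ra* at 2.97, *Il6st* at 2.21, *Il6ra* at 1.05 and *Csf2rb2* at 0.82 CPM per kilobase. There *Csf1r* and *Il1r1*, *Csf2rb* and *Il3ra*, *Il3ra* and *Il6st*, and *Il6ra* and *Csf2rb2* lay within their SDs. *Csf3r* was thus at rank 2 in each LSK group, at rank 3 in CMPs with *Renilla* shRNA, at rank 4 with sh10 and at rank 5 with sh20, though its gap to the gene ranked just above it was within the larger SD with sh10 (*Csf1r*) and with sh20 (*Il1r1*). The genes lie on different chromosomes but for the 2 beta chains, which neighbour each other on chromosome 15 (*Csf2rb2* at 78282507 to 78305721 on the minus strand and *Csf2rb* at 78325752 to 78353847 on the plus strand, GRCm38). The beta chains are near-identical in places, with 12.3% of the 50-base windows of *Csf2rb* and 18.4% of those of *Csf2rb2* found in both, so their split of reads is uncertain. Likewise 873 exonic bases of *Csf1r* overlap *Hmgxb3* on the other strand, and since the SMART-Seq v4 kit does not mark the strand, reads of the shared bases cannot be told apart.

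**Figure D1:**
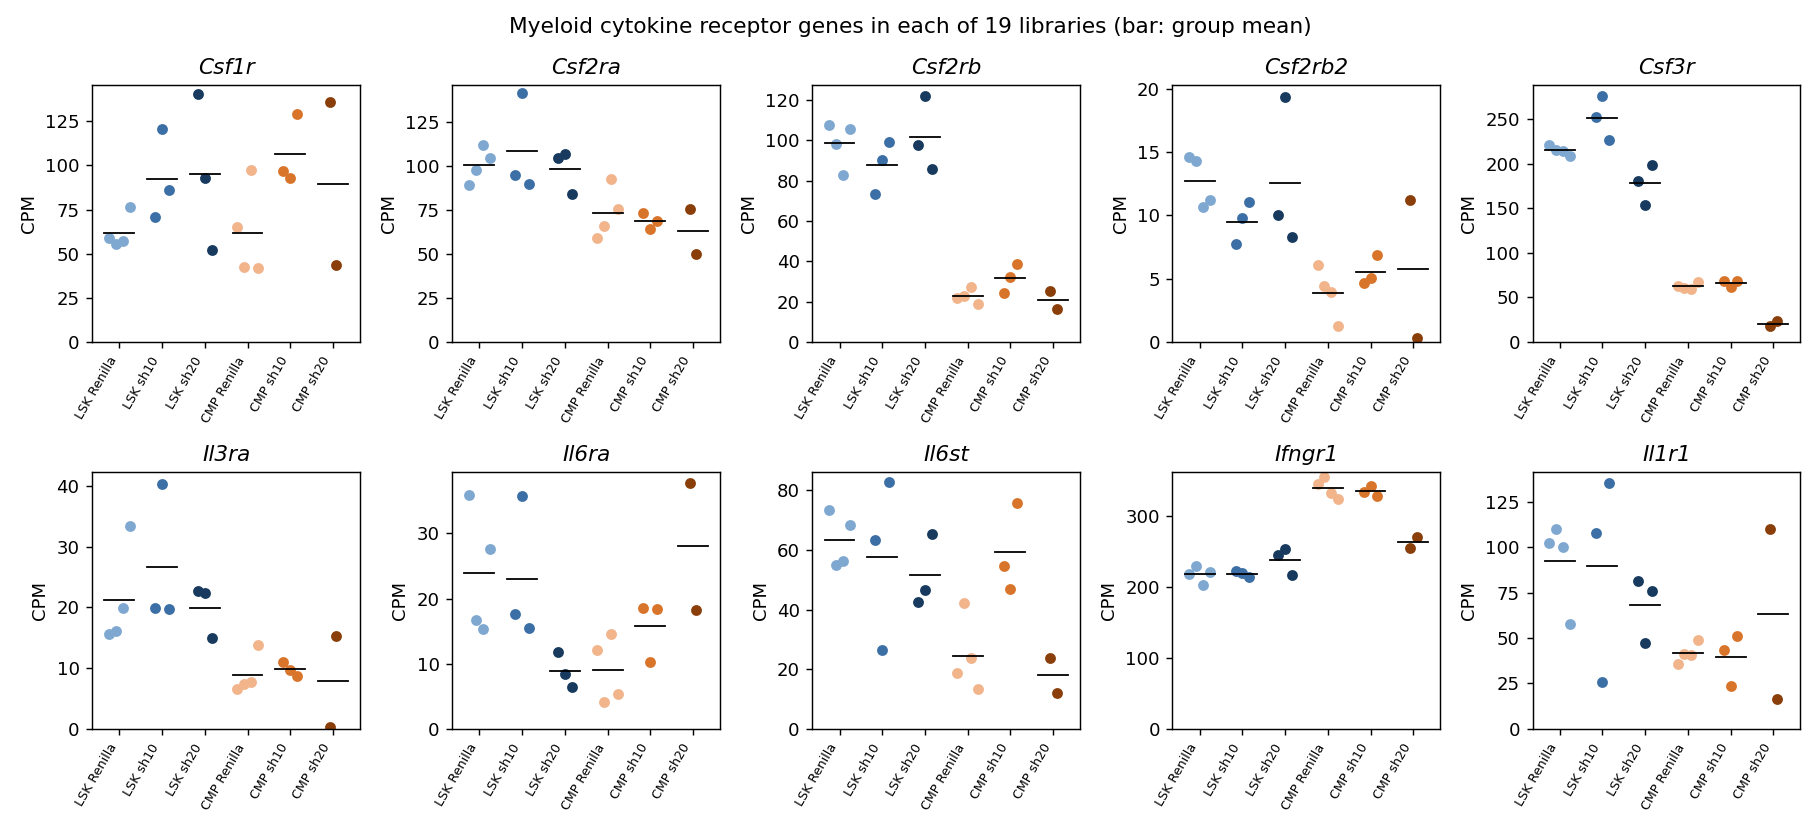
Level in CPM (linear axis, from 0) of each of the 10 receptor genes in each of 19 libraries, by cell type and shRNA, where points are libraries and bars are group means. *Csf3r* sits between 209 and 221 CPM in LSK cells with *Renilla* shRNA, between 59.4 and 67.5 in CMPs with it, and at 17.8 and 23.2 in the CMP libraries with sh20.

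The first comparison asked how receptor levels differ between CMPs and LSK cells that carry the control shRNA. In CMPs 4 of the 10 members were lower (*Csf3r*, *Csf2rb*, *Il6st* and *Il6ra*) and 1 was higher (*Ifngr1*) at an adjusted p under 0.05 in edgeR's quasi-likelihood test over 15066 genes. Of all genes tested 19.8% were called, 8.73% lower and 11% higher. The median log2 fold change was -1.32 over the 10 members and -0.02 over all genes tested. In bulk RNA, fewer cells of a type and less RNA per cell cannot be told apart.

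The G-CSF receptor gave even values in both groups. *Csf3r* had 221, 216, 214 and 209 CPM in LSK cells and 62.9, 60.2, 59.4 and 67.5 CPM in CMPs with *Renilla* shRNA. Every CMP library lay below every LSK library. CMPs differed by -1.78 on the log2 scale (standard error 0.10, adjusted p = 1.98e-08), a 3.44-fold lower level in CMPs. Leaving out any 1 of the 19 libraries kept it between -1.82 and -1.75.

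The common beta chain behaved alike. *Csf2rb* had 107, 98.2, 82.9 and 106 CPM in LSK cells and 21.8, 22.9, 27.2 and 18.9 CPM in CMPs, without overlap. The difference was -2.12 in log2 units (standard error 0.19, adjusted p = 1.24e-06), the largest of the members in this comparison. The paralog *Csf2rb2*, at 5 to 71 counts in a library with *Renilla* shRNA, had 12.7 ± 2.03 CPM (SD, n = 4) in LSK cells and 3.90 ± 2.003 CPM (SD, n = 4) in CMPs, a log2 fold change of -1.70 that missed the threshold (adjusted p = 0.0597). It was called without the filter on low counts, in DESeq2, and without CMP sh20 replicate B or C (adjusted p = 0.00526 and 0.00508). Of the alpha chains that pair with the beta chains, *Csf2ra* had a log2 fold change of -0.45 (adjusted p = 0.0774) and *Il3ra* one of -1.27 (adjusted p = 0.137), called without CMP sh20 replicate B or C. *Csf2ra* was called in DESeq2, without CMP *Renilla* replicate C and without LSK sh10 replicate B.

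Both chains of the IL-6 receptor were lower. *Il6st* had 73.3, 54.8, 56.2 and 68.4 CPM in LSK cells and 18.7, 42.2, 23.7 and 13.5 CPM in CMPs. The groups did not overlap, though CMP replicate B stood well above the other CMP libraries. The difference was -1.37 in log2 units (standard error 0.36, adjusted p = 0.0121). *Il6ra* had 35.9, 16.7, 15.3 and 27.6 CPM in LSK cells and 12.1, 4.14, 14.6 and 5.40 CPM in CMPs, with the lowest LSK library just above the highest CMP library. The log2 fold change was -1.40 (standard error 0.43, adjusted p = 0.0309), and among the changes that ended the call were leaving out CMP *Renilla* replicate B or D or LSK *Renilla* replicate A or D, and adding log2 total counts as a covariate.

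*Ifngr1* went the other way, at 218, 229.8, 203 and 221 CPM in LSK cells and 345, 354, 332 and 323 CPM in CMPs. All CMP libraries lay above all LSK libraries. The log2 fold change was 0.64 (standard error 0.06, adjusted p = 3.96e-06), a 1.56-fold higher level in CMPs. *Ifngr2*, the signalling chain of the same receptor, was lower in CMPs by a log2 fold change of -0.77 (adjusted p = 0.0117). Of the remaining members, *Csf1r* had 62.0 ± 9.60 and 61.7 ± 26.0 CPM (SD, n = 4 each) in LSK cells and CMPs, a log2 fold change of -0.01 with a nominal 95% interval from -0.70 to 0.68. *Il1r1* had 92.7 ± 23.6 and 41.6 ± 5.51 CPM (SD, n = 4 each), a log2 fold change of -1.16 (adjusted p = 0.109), although its groups did not overlap. It was called without CMP sh20 replicate B or C or LSK sh10 replicate B (-1.14 to -1.13). In 7 members every CMP library lay below every LSK library, against 14.7% of all genes tested.

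**Figure D2:**
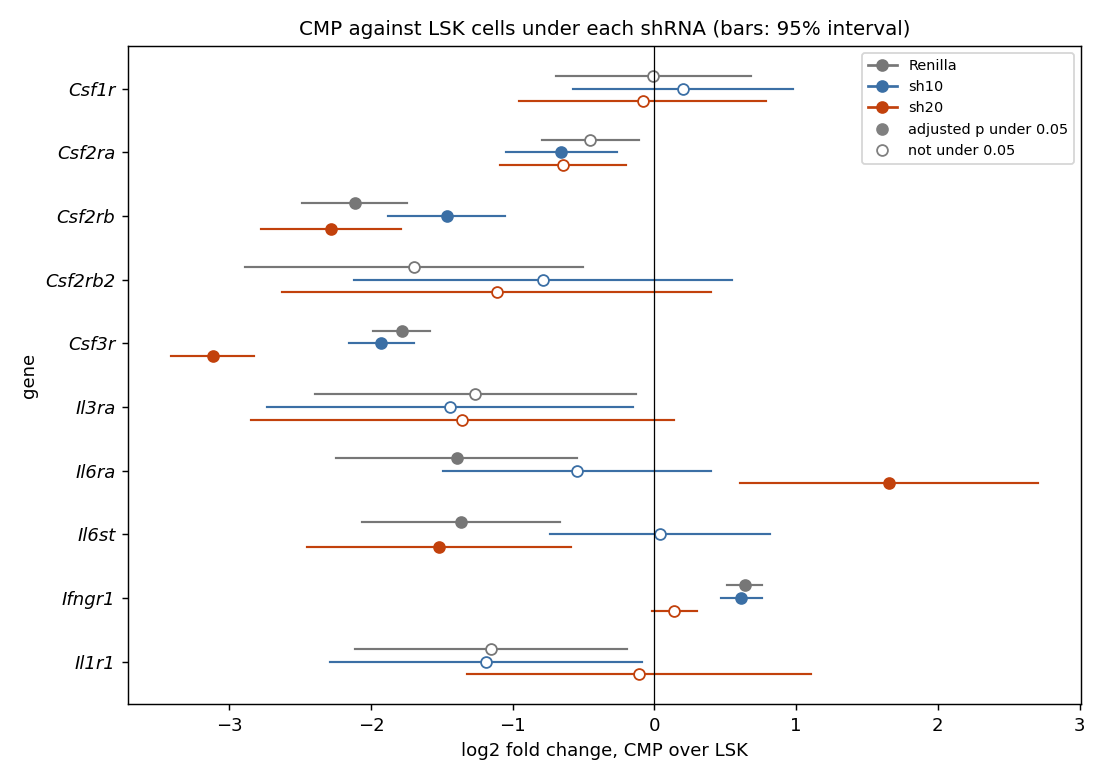
Log2 fold change of CMPs over LSK cells (x axis) for each receptor gene (y axis) under *Renilla* shRNA, sh10 and sh20, with 95% intervals and filled points where the adjusted p was under 0.05. *Csf3r* lies at -1.78, -1.93 and -3.12, *Ifngr1* at 0.64, 0.61 and 0.14, and *Il6ra* at -1.40, -0.55 and 1.66.

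Markers of several cell types moved in the same direction as the receptors that were lower in CMPs, and those of others did not. Erythroid and megakaryocyte markers were higher in 12 of 14 cases and lymphoid markers in 3 of 11 tested, with 0 lower in either list. Dendritic cell markers were higher in 2 of 10 cases and lower in 1. Mast cell, basophil and eosinophil markers were lower in CMPs with *Renilla* shRNA in 6 of 10 cases, with a summed level of 153 to 240.5 CPM against 401 to 1299 CPM in LSK cells, *Prss34* among them at 31.6 against 226 CPM. Monocyte and macrophage markers were lower in 6 of 13 cases, with sums of 259.8 to 475 against 494 to 695 CPM. The granulocyte-monocyte progenitor sums were 876 to 1146 against 1601 to 1867 CPM. Stem cell markers were lower in 6 of 12 cases, with sums of 793 to 1070 against 1383 to 1655 CPM. Mature neutrophil markers were lower in 8 of 11 tested, with sums of 11.6 to 23.4 against 8.66 to 366 CPM. These sums were uneven in LSK cells, at 366 and 207.5 CPM in replicates B and D but 8.66 and 17.7 CPM in A and C. *Csf3r* had 216 and 209 CPM in B and D, and 221 and 214 CPM in A and C. *Ly6g*, which marks neutrophils, had 0 counts in every CMP library, though 6 to 10 of the 12 markers had counts in the control CMP libraries. The part of these cells in the receptor differences was not tested.

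**Figure D3:**
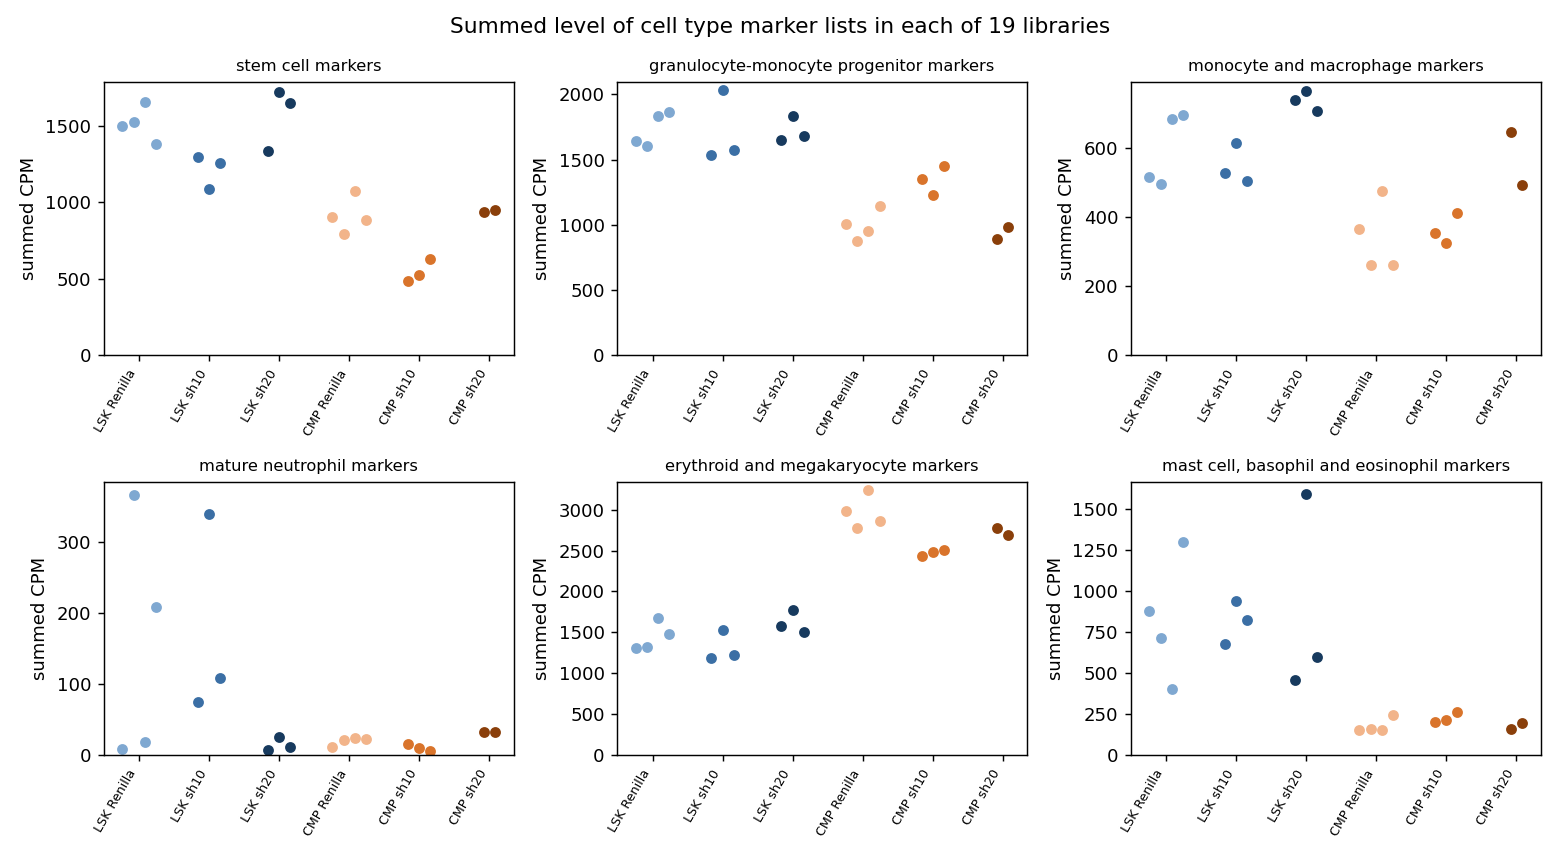
Summed CPM (linear axis, from 0) of 6 lists of cell type markers in each of 19 libraries, by cell type and shRNA, where points are libraries. Erythroid and megakaryocyte markers sum to 2775 to 3236 CPM in CMPs and 1306 to 1678 CPM in LSK cells with *Renilla* shRNA, while mast cell, basophil and eosinophil markers sum to 153 to 240.5 and 401 to 1299 CPM.

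Other genes of these pathways were taken from lists of ligands, receptor chains, kinases, STATs, adaptors, negative regulators and transcription factors. Among 24 other receptor chains tested between CMPs and LSK cells with *Renilla* shRNA, 8 were lower and 2 higher. *Epor*, the erythropoietin receptor, rose by a log2 fold change of 2.56 (adjusted p = 1.24e-06), and *Il1rl1*, the receptor for IL-33, by 2.04 (adjusted p = 0.0045). *Flt3* fell by 1.33 and *Tnfrsf1a* by 1.01 on the log2 scale. Of 10 kinases, *Jak3* (-0.96, adjusted p = 1.04e-06) and *Fes* (-0.48, adjusted p = 0.0285) were lower. *Stat3*, which acts below the IL-6 and G-CSF receptors, was the 1 of 7 STATs called, at -0.39 (adjusted p = 0.00779). Of 19 negative regulators 3 were lower, *Socs3* (-1.14), *Sh2b3* (-0.77) and *Inpp5d* (-0.39), and of 13 adaptors 2, *Pik3cd* (-0.47) and *Plcg2* (-0.44). Among all genes 19.8% were called, 8.73% as lower. Of 11 genes on the list of transcription factors, 6 were lower and 0 higher in edgeR, where 7 had an unadjusted p under 0.05. These were *Cebpe* (-4.25), *Gfi1* (-2.35), *Cebpa* (-1.50), *Irf8* (-1.25), *Cebpb* (-0.69) and *Spi1* (-0.64), and 3 of them, *Cebpe*, *Gfi1* and *Irf8*, are also among the granulocyte-monocyte progenitor markers. Ligands were scarce, with 4 of 10 tested, and *Il1b* was higher in CMPs at 6.84 against 1.29 CPM (adjusted p = 0.0491).

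The next comparison asked what each *Spehd* shRNA did in CMPs. With sh20, 2 of the 10 members were lower than with *Renilla* shRNA (*Csf3r* and *Ifngr1*) and 0 were higher in edgeR's quasi-likelihood test, in which 3 members (and 24.6% of genes) had an unadjusted p under 0.05. Of 13824 genes tested 6.17% were called, 4.27% lower and 1.9% higher. This share depended on the setting, as 0 to 1709 genes were called over 8 other settings against 853 here. The median log2 fold change was -0.14 over the members and 0.01 over all genes. The sh20 libraries lay wholly below the control in 2 members and wholly above it in 1, against 17.6% and 12.1% of genes. The sh20 libraries stood outside the other CMP libraries in genes detected (17174 and 18066, against 18552 to 20275) and in alignments that were not unique (47.9% and 47.6%, against 41.0% to 45.6%). The part of this in the results with sh20 was not tested.

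*Csf3r* had 17.8 and 23.2 CPM in the 2 libraries with sh20 (105 and 132 counts), against 59.4 to 67.5 CPM with *Renilla* shRNA (239 to 275 counts) and 68.2, 61.9 and 68.5 CPM with sh10. Both sh20 libraries lay far below all others from CMPs. The log2 fold change of sh20 over *Renilla* shRNA was -1.59 (standard error 0.16, adjusted p = 0.00549), a 3.02-fold lower level. It was -1.42 without sh20 replicate B and -1.79 without replicate C, past the threshold both times, where the lone sh20 library is assumed to vary like the other groups. DESeq2 gave -1.58. Against sh10, in a comparison that uses the same 2 sh20 libraries, *Csf3r* stood at -1.67 in log2 units (standard error 0.17, adjusted p = 0.00395), and between -1.87 and -1.50 without any 1 CMP library.

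*Ifngr1* had 255 and 269.9 CPM with sh20, against 323 to 354 CPM with *Renilla* shRNA and 333, 342 and 327 CPM with sh10. The sh20 libraries again lay below all others, by a much smaller step. The log2 fold change was -0.35 against *Renilla* shRNA (standard error 0.06, adjusted p = 0.011). Without any 1 CMP library it stayed between -0.39 and -0.32. Against sh10 it was -0.33 (standard error 0.06, adjusted p = 0.0201). The former, fitted with log2 library totals as covariate, missed the threshold (adjusted p = 0.266), and all CMP libraries with *Spehd* shRNAs were deeper than those with *Renilla* shRNA. The latter missed it without sh10 replicate A or B or sh20 replicate B. Against sh10, as against *Renilla* shRNA, 2 of the 10 members were lower and 0 higher, where 6.41% of genes were called and 3.64% were lower.

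*Il6ra* showed a rise that did not pass the test. It had 37.8 and 18.3 CPM with sh20 against 4.14 to 14.6 CPM with *Renilla* shRNA. Both libraries with sh20 lay above those with *Renilla* shRNA, and replicate C lay level with sh10, whose highest value was 18.5 CPM. The log2 fold change was 1.64 (standard error 0.51, adjusted p = 0.0904), called without replicate C (2.07, adjusted p = 0.0212), in DESeq2 (adjusted p = 0.0334) and without the filter (adjusted p = 0.031), and 1.01 without replicate B (adjusted p = 0.300).

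The other 7 members had log2 fold changes between -0.43 (*Il6st*) and 0.62 (*Il1r1*) with sh20, with *Csf1r* at 0.55, *Csf2ra* at -0.21, *Csf2rb* at -0.11, *Csf2rb2* at 0.58 and *Il3ra* at -0.16, and adjusted p-values from 0.483 to 0.934. For 4 of these the 2 libraries lay far apart. *Csf1r* had 136 CPM in replicate B and 43.6 in replicate C, and *Il1r1* had 110.3 and 16.2 CPM. Likewise *Csf2rb2* had 11.2 and 0.35 CPM (66 and 2 counts), and *Il3ra* had 0.34 and 15.3 CPM (2 and 87 counts). Over fits without 1 CMP library, the log2 fold change with sh20 ran from -0.50 to 1.158 for *Csf1r*. It ran from -1.36 to 1.43 for *Il1r1* and from -4.57 to 0.80 for *Il3ra*.

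Monocyte and macrophage markers were higher with sh20 in CMPs in 3 of 13 cases (*Cx3cr1*, *C1qa* and *Ms4a6c*) and lower in 0, where 7 had an unadjusted p under 0.05 in edgeR. Their sums were 645 CPM in replicate B and 492 in replicate C, against 259.8 to 475 CPM with *Renilla* shRNA, and *Csf1r* was high in replicate B alone. Granulocyte-monocyte progenitor markers summed to 894 and 979 CPM with sh20, within the 876 to 1146 CPM of the *Renilla* libraries, and 1 of 11 tested was lower (*Calr*), while the median log2 fold change of the list was 0.31 and 8 of 11 were positive. Mature neutrophil markers summed to 32.4 and 32.7 CPM with sh20, above the 11.6 to 23.4 CPM of the control, with 0 of 4 tested called in edgeR and 0 at an unadjusted p under 0.05. Of 14 erythroid and megakaryocyte markers 3 were lower (*Car1*, *Car2* and *Klf1*) and 1 higher, 5 were positive in all and the median log2 fold change was -0.16. *Klrb1c*, *Ms4a2* and *Ccr9*, 1 each of the lymphoid, mast cell and dendritic lists, were lower. The part of these cells in the values with sh20 was not tested. *Spi1*, *Cebpa* and *Cebpb* did not pass the test with sh20. Of other pathway genes, *Tnfrsf1b* (0.82) and *Lifr* (3.77) were higher among 23 receptor chains, *Btk* (0.48) was higher and *Jak3* (-0.56) lower among 10 kinases, and the adaptor *Grb2* (-0.41) was lower. *Lifr* was low and uneven, with 14 and 107 counts in the CMP libraries with sh20 and 1 to 8 counts in those with *Renilla* shRNA.

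**Figure D4:**
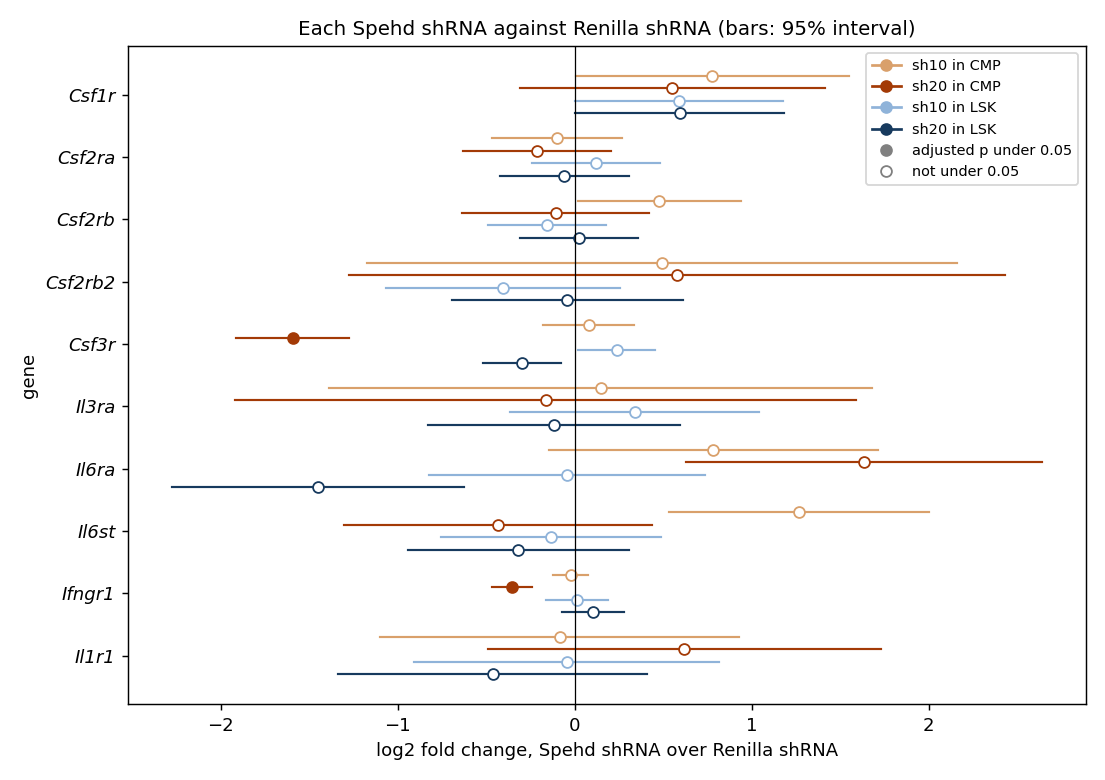
Log2 fold change of each *Spehd* shRNA over *Renilla* shRNA (x axis) for each receptor gene (y axis) in CMPs and LSK cells, with 95% intervals and filled points where the adjusted p was under 0.05. *Csf3r* at -1.59 and *Ifngr1* at -0.35, both with sh20 in CMPs, are the filled points, and *Il6ra* with sh20 lies at 1.64 in CMPs and -1.45 in LSK cells.

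With sh10 in CMPs 0 of the 10 members passed the test in edgeR, where 1 (*Il6st*) and 21.2% of genes had an unadjusted p under 0.05 and 1.97% of 13824 genes were called. DESeq2 called 1 member, *Il6st*. It had 54.7, 47.0 and 75.8 CPM with sh10 against 18.7, 42.2, 23.7 and 13.5 CPM with *Renilla* shRNA. All sh10 libraries lay above the *Renilla* libraries, as in 12.3% of genes, with replicate B close to *Renilla* replicate B. The log2 fold change was 1.27 (standard error 0.38, adjusted p = 0.101), called without CMP *Renilla* replicate B (1.66, adjusted p = 0.0440), and without CMP sh20 replicate B or C (adjusted p = 0.0426 and 0.0444). *Il6st* with sh20 was lower than with sh10 by -1.70, short of the threshold (adjusted p = 0.0623), though 4 of 8 other settings called it, DESeq2 among them, and so did 2 of 9 fits without 1 library. *Csf3r* had a log2 fold change of 0.08 with a nominal 95% interval from -0.18 to 0.34, and *Ifngr1* one of -0.02 with an interval from -0.12 to 0.08. *Csf1r* (0.78), *Il6ra* (0.78), *Csf2rb2* (0.49), *Csf2rb* (0.48), *Il3ra* (0.15), *Il1r1* (-0.08) and *Csf2ra* (-0.10) had adjusted p-values from 0.284 to 0.954. *Irf8*, a factor of the monocyte lineage that is also on the list of granulocyte-monocyte progenitor markers, was higher with sh10 (1.86, adjusted p = 0.0158). Of 13 monocyte and macrophage markers 2 were higher, *F13a1* (3.21) and *Ms4a6c* (2.08), but 5 were positive in all, the median was -0.28, and the sums of 325 to 412 CPM lay within those of the control. Sums of granulocyte-monocyte progenitor markers were 1230 to 1451 CPM with sh10 against 876 to 1146 CPM, those of stem cell markers 481 to 631 against 793 to 1070 CPM, and those of lymphoid markers 213 to 306 against 337 to 441 CPM. Those of erythroid and megakaryocyte markers were 2438 to 2503 against 2775 to 3236 CPM. None of these 4 ranges overlapped, and their part in the values with sh10 was not tested. Among 19 negative regulators *Dok2* was lower (-1.09). The sh10 and sh20 comparisons share the *Renilla* libraries.

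Taken as 1 group, the 5 CMP libraries with *Spehd* shRNAs had 0 members called against *Renilla* shRNA in edgeR, where 1 (*Il6ra*) and 16.6% of genes had an unadjusted p under 0.05 and 0.116% of 12912 genes were called, and 0 in DESeq2. *Csf3r* stood at -0.39 and *Ifngr1* at -0.15. When sh10 and sh20 entered the fit as 2 groups and their effects were averaged, both were called, at -0.76 and -0.19. Calls over all genes moved with the setting as well, from 0 to 882 over 9 other settings against 15 in the main fit.

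In LSK cells 0 members and 0 genes of any kind passed the test with either *Spehd* shRNA or with both as 1 group, so that 0% of 13441 to 13828 genes were called in edgeR. DESeq2 called 0 members in these 3 comparisons, and of all genes 0 with both shRNAs, 3 with sh10 and 195 with sh20. Unadjusted p-values under 0.05 were found for 3.66% of all genes with both shRNAs, 3.3% with sh10 and 8.33% with sh20. *Csf3r* had 252, 276 and 227 CPM with sh10, 181, 154 and 199 CPM with sh20 and 209 to 221 CPM with *Renilla* shRNA. All sh10 libraries lay above the *Renilla* libraries and all sh20 libraries below, as in 3.13% and 5.81% of genes, and the log2 fold changes were 0.24 (adjusted p = 0.995) and -0.30 (adjusted p = 0.480), both with a standard error of 0.11. Between sh20 and sh10 in LSK cells *Csf3r* differed by -0.53, called in DESeq2 and not in edgeR (adjusted p = 0.157), which called 0 genes there and gave 9.17% an unadjusted p under 0.05. In LSK cells too the sh20 libraries had fewer genes detected (17587 to 17817, against 19026 to 20678 in the other LSK libraries), and the part of this in these values was not tested. Mature neutrophil markers summed to 74.9 to 339 CPM with sh10 and to 7.10 to 24.9 CPM with sh20 in the same cells, against 8.66 to 366 CPM with the control. Between sh20 and sh10, 0 of 11 were called, 8 had an unadjusted p under 0.05 in edgeR, and the median log2 fold change was -3.55. Their part in the *Csf3r* values was not tested. *Ifngr1* had 245, 253 and 216 CPM with sh20, overlapping the 203 to 229.8 CPM of *Renilla* shRNA. *Il6ra* had 11.8, 8.39 and 6.43 CPM with sh20, below the 15.3 to 35.9 CPM of *Renilla* shRNA (log2 fold change -1.45, adjusted p = 0.330). LSK sh10 replicate B held 25.6 CPM of *Il1r1* and 26.4 of *Il6st*, against 108 and 136 CPM and 63.4 and 82.7 CPM in replicates A and C, and it was the highest of the 3 in *Csf1r* (121 CPM), *Csf2ra* (141 CPM) and *Il3ra* (40.4 CPM). Leaving it out gave no call in LSK cells.

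The difference between CMPs and LSK cells was then taken within each shRNA. With sh10, *Csf3r* (-1.93), *Csf2rb* (-1.47) and *Csf2ra* (-0.66) were lower in CMPs and *Ifngr1* (0.61) was higher, 4 of 10 members where 16.1% of 15066 genes were called. *Csf2ra* missed the threshold without any 1 of the CMP sh10 libraries or LSK sh10 replicate B. With sh20, *Csf3r* (-3.12), *Csf2rb* (-2.28) and *Il6st* (-1.52) were lower and *Il6ra* (1.66) was higher, 4 of 10 where 14.6% were called. The *Csf3r* level in CMPs with sh20 was 8.69-fold below that in LSK cells with sh20, and its log2 value was -2.93 without CMP sh20 replicate B and -3.32 without replicate C. *Ifngr1* there had a log2 fold change of 0.14 (adjusted p = 0.267). *Il6ra* with sh20 rested on single libraries, and missed the threshold without any 1 of 12 of the 19 libraries, down to 1.05 without CMP sh20 replicate B. *Il6st* with sh20 missed it without CMP sh20 replicate C or LSK sh20 replicate B or C.

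The test of the difference between these effects was made in the fit of all 19 libraries. With both *Spehd* shRNAs averaged, 0 members differed in their response between CMPs and LSK cells in edgeR, where 0.0531% of 15066 genes were called and *Csf3r* came nearest at -0.74 (standard error 0.13, adjusted p = 0.053). DESeq2 called *Csf3r*, and so did edgeR without CMP sh20 replicate C (-0.84) or LSK sh20 replicate B (-0.79). An unadjusted p under 0.05 was found for 10.1% of all genes. Taken for sh20 alone, a comparison chosen after the results per shRNA were seen, the effect in CMPs minus that in LSK cells was -1.34 for *Csf3r* (adjusted p = 0.00165, standard error 0.17) and -0.50 for *Ifngr1* (adjusted p = 0.0373, standard error 0.10), 2 of 10 members where 0.584% of genes were called. It stayed between -1.55 and -1.16 for *Csf3r* without any 1 library, always past the threshold. For *Ifngr1* it missed the threshold without any 1 of 14 of the 19 libraries. *Il6ra* differed by 3.05 (standard error 0.69), short of the threshold in edgeR (adjusted p = 0.0589) and past it in DESeq2 and without CMP sh20 replicate C, CMP *Renilla* replicate C or LSK sh10 replicate B. For sh10 alone 0 members differed in edgeR, where 0.0199% of genes were called and 7.76% had an unadjusted p under 0.05, and DESeq2 also called 0. *Csf3r* then stood at -0.14 and *Ifngr1* at -0.02.

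The members did not move as 1 block over the 19 libraries. As a description across libraries that share cell type, shRNA and depth, the Pearson r of log2 CPM was 0.888 for *Csf2rb* and *Csf3r*, 0.799 for *Csf2ra* and *Csf2rb*, and 0.796 for *Csf2rb* and *Csf2rb2*. Of these pairs, after the group means were taken off only the paralogs kept a like value, at 0.716, whereas *Csf2rb* and *Csf3r* fell to -0.664 and *Csf2ra* and *Csf2rb* to 0.338. *Il6ra* and *Il6st* gave 0.114. *Ifngr1* ran against *Csf2rb* at -0.815 over all libraries and 0.213 within groups.

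Of the genes averaging 50 counts or more per library, the closest to *Csf3r* over the 19 libraries were *Spns2* and *Plppr3* (r = 0.966 each) and *Kctd17* (0.959). *Csf2rb* was closest to *Rab31* (0.963), the basophil protease gene *Prss34* (0.958) and *Rps6ka1* (0.953), and *Csf2ra* to *Spi1* (0.924), which encodes PU.1, *P2rx4* (0.92) and *Tcp11l1* (0.912). *Ifngr1* was closest to *Lyar* (0.955), *Morf4l2* (0.949) and *Larp1b* (0.948), and *Il3ra* to *Mfsd13a* (0.947), *Slc35f2* (0.945) and *Agtrap* (0.936). *Il6st* was closest to *Cyfip2* (0.9), *Il1r1* to *Eml4* (0.897) and *Il6ra* to *Calhm2* (0.745). These values describe 19 libraries that fall into 6 groups.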

How the data were processed

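The authors prepared SMART-Seq v4 libraries, aligned reads to mm10 with STAR, removed duplicates with Picard and counted reads per gene with HTSeq on GENCODE vM11. The deposited values are raw counts, 1 file per library, and each file's closing lines of unassigned reads were left out (26.4% to 32.2% without a feature, 39.6% to 50.9% not unique). Names and positions of genes were read from GENCODE vM21 (GRCm38). The kit does not mark the strand. The strand mode of HTSeq was not named, but default parameters were, with which HTSeq counts 1 strand only. In that case part of each gene's reads went uncounted and reads of a gene on the other strand could be counted in its place. Of unique alignments, 51.9% to 53.8% had no feature. A deposited table of counts divided by size factors was not used. Removal of duplicates without molecular identifiers can lower the counts of abundant genes.

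Groups followed the labels. The 10 members and all gene lists were chosen with earlier results of these data known. Counts were tested with edgeR 4.0.16 (limma 3.58.1, R 4.3.3) by its quasi-likelihood test with TMM scaling, a filter on low counts (minimum 10, total 15), a prior count of 2 and Benjamini-Hochberg adjustment over all genes tested, with 0.05 as the threshold. Comparisons within a cell type used the libraries of that cell type, and those between cell types used all 19. Intervals are 1.96 standard errors. Alternatives were DESeq2 1.42.0, other scalings and filters, a replicate block, log2 total counts as a covariate, other groupings and each library left out. Members were described in full, and for likeness the 3 genes of highest Pearson r were taken, of which 1 is named for weaker matches. Scripts were tested on simulated counts. Replicates of a group correlated at 0.857 to 0.982 (Pearson r of log2 CPM across genes). Some genes of the lists and of the search for likeness are not reported here.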

Additional observations from a re-analysis of the deposited data

Results flagged for a closer look

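In groups of 4 libraries, 20 tests for a library far from the rest were made over the 10 members, and 2 picked one out, where chance picks about 1 in 20. *Csf1r* had 76.2 CPM in LSK *Renilla* replicate D against 55.4 to 59.0 CPM in the others (gap over range 0.831). *Il3ra* had 13.7 CPM in CMP *Renilla* replicate D against 6.58 to 7.66 CPM (0.85).

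The effect of sh20 differed between CMPs and LSK cells for 2 members in the interaction test of edgeR, a comparison added after seeing the data. For *Csf3r* the difference was -1.34 on the log2 scale, and for *Ifngr1* it was -0.50, which missed the threshold in 5 of 7 other settings and without any 1 of 14 of the 19 libraries.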

How the results depend on the processing

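*Csf3r* with sh20 in CMPs stayed between -1.65 and -1.54 over 8 other settings and was called in 7 of them. Among members called, both shRNAs as 1 group in CMPs gave 1 with all 19 libraries in 1 fit and 2 with shRNAs as separate groups, in place of 0. With sh10 in CMPs, no filter gave 1 and DESeq2 1, in place of 0. With sh20 in CMPs, log2 total counts as a covariate gave 1 in place of 2. For sh20 against sh10 in LSK cells DESeq2 gave 1 in place of 0, and for CMPs against LSK cells with *Renilla* shRNA no filter gave 8 in place of 5. The difference between cell types with both shRNAs averaged gave 2 with no filter, 1 in DESeq2 and 2 with sh20 alone, in place of 0. For sh10 alone no filter gave 1 in place of 0, and for sh20 alone upper quartile scaling, 10 counts in every library and the covariate each gave 1 in place of 2. Calls over all genes moved with the settings too. They ran from 0 to 882 for both shRNAs in CMPs, 1 to 1209 for sh10 in CMPs and 0 to 256 for sh20 against sh10 in LSK cells. For CMPs against LSK cells with *Renilla* shRNA they ran from 2346 to 3496, for the averaged difference from 0 to 253 and for sh10 alone from 0 to 153. The covariate turned *Csf2ra* with sh10 in CMPs to 0.11, and with sh20 in CMPs *Csf2ra* to 0.14, *Il3ra* to 0.81 and *Il1r1* to -0.43. The cause was not tested.

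The labels do not say that replicate letters pair libraries, and letters were not taken as pairs, since of 16 pairs of the same cell type and letter 1 had deviations correlated over 0.1, and of 9 pairs of the same shRNA and letter 2 did. With the replicate block, members called fell from 2 to 0 for sh20 in CMPs, from 2 to 1 for sh20 against sh10 in CMPs, from 4 to 2 for CMPs against LSK cells with sh20, and from 2 to 1 for the sh20 effect in CMPs minus that in LSK cells. Over the other settings, this block among them, calls over all genes ran from 0 to 1709, 28 to 1982, 1317 to 3010 and 3 to 474 in these comparisons, in that order. *Csf3r* with sh20 in CMPs then stood at -1.54 (adjusted p = 0.0905 in edgeR) and *Ifngr1* at -0.37. The block turned *Il1r1* with sh10 in CMPs to 0.055 and *Csf2rb2* with sh20 in CMPs to -0.19.

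Leaving out 1 library gave 0 to 1 members for sh10 in CMPs, 2 to 6 for sh20 in CMPs, 1 to 4 for sh20 against sh10 in CMPs, 4 to 8 and 2 to 5 for CMPs against LSK cells with *Renilla* shRNA and sh20, 0 to 2 for the averaged difference and 1 to 4 for sh20 alone. Calls over all genes also moved widely over these fits, so the counts of members cannot be read alone. Without CMP sh20 replicate B or C, 1 library was left in that group. With sh20 in CMPs the values ran from -0.50 to 1.158 for *Csf1r*, -3.37 to 1.54 for *Csf2rb2*, -4.57 to 0.80 for *Il3ra*, -1.36 to 1.43 for *Il1r1*, -0.55 to 0.063 for *Csf2ra* and -0.47 to 0.18 for *Csf2rb*. With sh10 they ran from -0.32 to 0.19 for *Il1r1* and -0.19 to 0.036 for *Csf2ra*. *Csf1r* between cell types with *Renilla* shRNA ran from -0.30 to 0.15, and *Ifngr1* in the sh10 effect in CMPs minus that in LSK cells from -0.063 to 0.0052. With low counts, *Csf2rb2* and *Il3ra* limit what these libraries can show.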
